A study of Mus musculus with 24 samples.

Results

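The microRNA miR-22 was followed across 24 arrays of 3 mouse mammary carcinoma lines. It is 1 probe of the 558 mouse miRNA probes on the array, taken by its exact name, mmu-miR-22. It was selected on its measured values, the log2 intensity and the detection p-value in all 12 groups, so its levels and differences below are a description and carry no p-value. The lines are 67NR, which the labels call nonmetastatic, 4TO7, called systemically invasive, and 4T1, called highly metastatic. Cells of each line were kept for 6 days in organotypic culture in a compliant or a rigid microenvironment. Every culture received either TGF-beta, a cytokine that can turn epithelial cells mesenchymal, or a blocker of its type I receptor, a state the labels call basal and the text below calls the inhibitor. No group lacked both agents, so a higher level with TGF-beta cannot be told apart from a lower level with the inhibitor. The 12 combinations of line, microenvironment and agent had 2 arrays each, called set 1 and set 2, and the labels do not say whether the sets came from separate cultures.

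MiR-22 is a widely expressed miRNA that is abundant in heart and skeletal muscle. It is cut from a hairpin in a long noncoding host RNA and, bound to an Argonaute protein, represses mRNAs that carry matches to its seed. Reported targets are the TET enzymes that start DNA demethylation and the oestrogen receptor alpha. In mammary cells it has been reported to favour epithelial-mesenchymal transition by lowering TET enzymes and with them the miR-200 family, while other work describes it as a brake on growth.

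Both strands of the hairpin have a probe. The files give no probe sequence, so the unstarred name was taken for the 3′ strand and miR-22* for the 5′ strand, after the older naming of miRNAs. The sequences below rest on that match. They are shown with the seed, bases 2 to 8, in capitals, since the seeds are what separates the strands' targets. The hairpin, shown with both strands in capitals, is where they meet. MiR-132, miR-212, miR-34a and miR-3966 are shown because they are compared with miR-22 below. All 6 mature sequences and the hairpin are from RefSeq (build GRCm38.p6).
miR-22 (3′ strand): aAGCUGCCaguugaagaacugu
miR-22* (5′ strand): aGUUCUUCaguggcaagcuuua
Mir22 hairpin: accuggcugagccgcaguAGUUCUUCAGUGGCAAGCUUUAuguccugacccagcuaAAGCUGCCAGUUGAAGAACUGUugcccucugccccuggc
miR-132 (3′ strand): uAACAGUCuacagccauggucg
miR-212 (3′ strand): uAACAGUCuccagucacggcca
miR-34a (5′ strand): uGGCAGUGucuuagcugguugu
miR-3966: aGCUGCCAgcuguagaacugu

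The 95-base hairpin lies on the plus strand of chromosome 11 from 75463716 to 75463810, inside the lncRNA gene Mir22hg and between the protein-coding genes Wdr81 and Tlcd2. The 3′ strand spans 75463772 to 75463793 and the 5′ strand 75463734 to 75463755. In the predicted fold, 19 of the 22 bases of the 3′ strand pair with the 5′ strand. No other mature mouse miRNA in the RefSeq table has the seed of miR-22 or that of miR-22*. The mature sequence nearest to miR-22 was miR-3966, at 3 edits. On the same build miR-132 spans 75173723 to 75173744 and miR-212 75173443 to 75173464 of chromosome 11, miR-34a 150068473 to 150068494 of chromosome 4 and miR-3966 97423493 to 97423513 of chromosome 10. The array has no probe named for miR-3966, and whether it binds the miR-22 probe was not tested.

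MiR-22 was detected on all 24 arrays, with a detection p listed as 0 on each, and its fail code was set on 0 arrays. Its deposited relative intensity, the sample dye over the reference dye, ran from 719 to 3622, a 5.03-fold range. The error deposited with each spot was 1.31% to 11.7% of the intensity, with a median of 7.40%. On the quantile-normalized log2 scale used below, the SD between the 2 arrays of a group was 0.076 when pooled over the 12 groups. The median residual SD of the 365 probes tested was also 0.076. Each array detected 313 to 357 miRNA probes, and across probes the arrays of each group had correlations of 0.996 to 0.999. Precision is limited by there being 2 arrays in each group.

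In 67NR cells with the inhibitor, miR-22 had intensities of 2677 and 1881 in compliant and of 2821 and 2663 in rigid culture. With TGF-beta the intensities were 2429 and 2496 in compliant and 2523 and 3622 in rigid culture. On this deposited scale the 67NR groups overlapped, and the highest value of the whole series was the set 2 array of rigid culture with TGF-beta.

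In 4TO7 cells the inhibitor arrays read 792 and 862 in compliant and 719 and 782 in rigid culture. The TGF-beta arrays read 1174 and 1504 in compliant and 1149.6 and 1321 in rigid culture. All 4 TGF-beta arrays of 4TO7 lay above all 4 inhibitor arrays.

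In 4T1 cells the inhibitor arrays read 875 and 1307 in compliant and 849 and 979 in rigid culture. The TGF-beta arrays read 2705 and 2487 in compliant and 2494 and 2238 in rigid culture. Here the groups were far apart, and the lowest TGF-beta array stood well above the highest inhibitor array. The 4T1 arrays with TGF-beta fell within the range of 67NR, while those with the inhibitor lay near 4TO7.

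**Figure D1:**
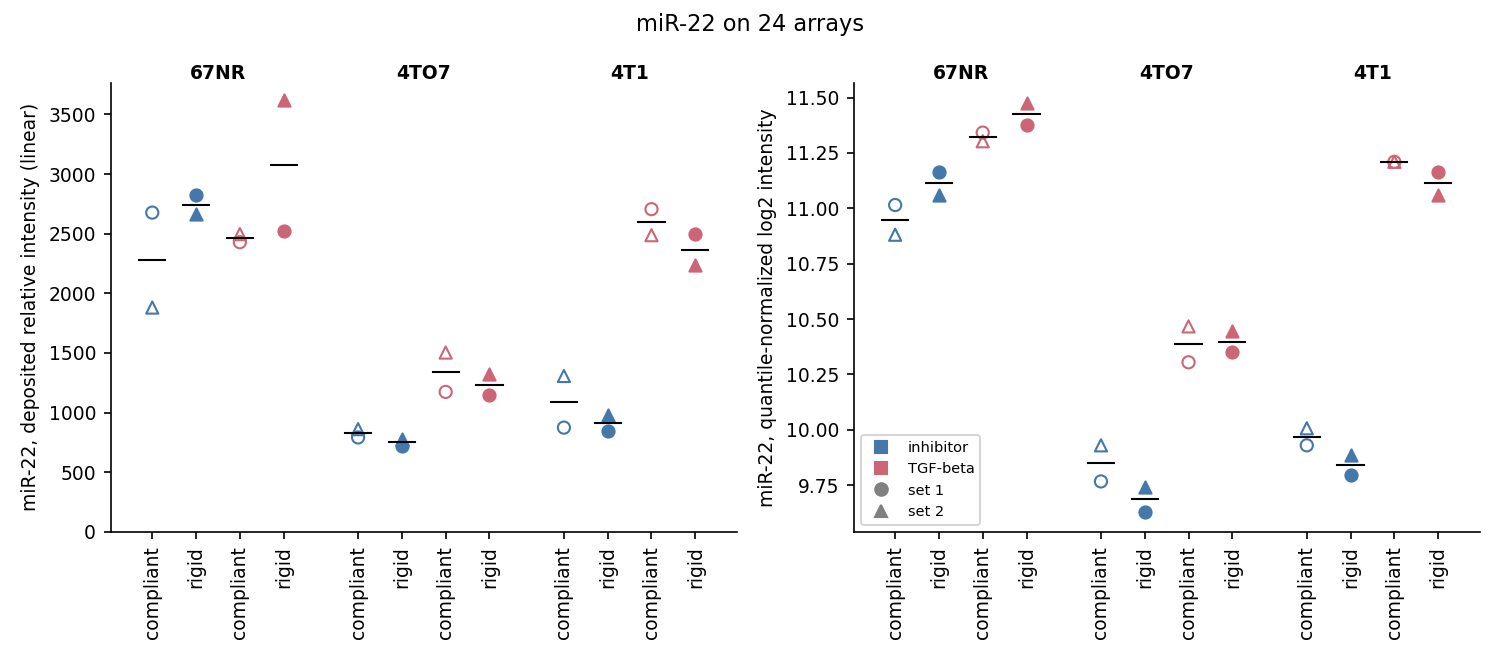
Left, the deposited relative intensity of miR-22 (linear axis from 0), and right, its quantile-normalized log2 intensity, for each of the 24 arrays; open symbols are compliant and filled symbols rigid culture, circles set 1 and triangles set 2, blue the inhibitor and red TGF-beta, and the black lines are means of 2 arrays. The 4T1 arrays run from 849 to 1307 with the inhibitor and from 2238 to 2705 with TGF-beta, and the 67NR arrays are high with either agent.

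After quantile normalization the 12 groups fell into a high tier, a middle tier and a low tier. The high tier held all 67NR groups and the TGF-beta groups of 4T1. It was led by 67NR with TGF-beta, at 11.43 ± 0.07 in rigid and 11.32 ± 0.03 in compliant culture (log2 mean ± SD, n = 2 here and in the rest of this paragraph). Compliant 4T1 with TGF-beta followed at 11.21, with the same value on both arrays because the probe had the same rank on them. Rigid 67NR with the inhibitor and rigid 4T1 with TGF-beta were both at 11.11 ± 0.07, and compliant 67NR with the inhibitor was at 10.95 ± 0.10. A step of 0.55 led down to the middle tier, 4TO7 with TGF-beta, at 10.40 ± 0.07 in rigid and 10.39 ± 0.12 in compliant culture. Another step of 0.42 led to the low tier, the inhibitor groups of 4T1 and 4TO7. Compliant 4T1 was at 9.97 ± 0.05, compliant 4TO7 at 9.85 ± 0.12, rigid 4T1 at 9.84 ± 0.06 and rigid 4TO7 at 9.69 ± 0.08. Neighbours in this order that overlapped were rigid 67NR with the inhibitor and rigid 4T1 with TGF-beta, the pair of 4TO7 groups with TGF-beta, and the first 3 groups of the low tier. Within the tiers no gap between neighbours was above 2.17 times the pooled SD, whereas the steps between tiers were 7.23 and 5.49 times that SD. The tiers were drawn at the 2 widest gaps of these same values, so the wider steps follow from how they were drawn. On the deposited scale the low and middle tiers overlapped. There a compliant 4T1 array with the inhibitor, at 1307, lay above the 4TO7 arrays with TGF-beta at 1174 and 1149.6.

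With the inhibitor, 67NR cells had the most miR-22. Over 4 arrays per line the level was 11.03 ± 0.12 (SD, n = 4) in 67NR, 9.90 ± 0.09 (SD, n = 4) in 4T1 and 9.77 ± 0.12 (SD, n = 4) in 4TO7. The difference of 4T1 from 67NR was -1.13 ± 0.06 (SE of the fit across all probes, as for all differences below), a level 0.458 of that in 67NR. That of 4TO7 from 67NR was -1.26 ± 0.06, or 0.417 of the 67NR level. In neither comparison did the lines overlap, as was the case for 73.2% and 67.7% of the 365 probes tested. In each, 1 tested probe had a lower difference than miR-22. By size in either direction miR-22 was number 34 of the 365 for 4T1 and number 20 for 4TO7. The choice of miR-22 rests on these values. The 4T1 and 4TO7 arrays with the inhibitor overlapped, with a difference of 0.14 ± 0.06, where 42.5% of probes did not overlap.

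With TGF-beta the order of the lines was the same but the spacing was not. The level was 11.37 ± 0.07 (SD, n = 4) in 67NR, 11.16 ± 0.07 (SD, n = 4) in 4T1 and 10.39 ± 0.08 (SD, n = 4) in 4TO7. The difference of 4T1 from 67NR was -0.21 ± 0.06, close to the median of -0.20 over all tested probes. 4TO7 stayed below 67NR by 0.98 ± 0.06 on the log2 scale, and 4T1 stood above 4TO7 by 0.77 ± 0.06. Non-overlap was found for 80.8%, 71.2% and 33.7% of probes in these 3 comparisons, which include miR-22 each time.

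After quantile normalization the TGF-beta arrays held more miR-22 than the inhibitor arrays in each line and each microenvironment. On the deposited scale the arrays of the 2 agents overlapped in both microenvironments of 67NR. Averaged over the lines the difference was 0.74 ± 0.03, against a median of 0.01 over all probes tested, and in this comparison 39.5% of the 365 probes passed an adjusted p of 0.05 in limma. The split of these calls depended on the scaling. Over all lines 78 probes were higher and 66 lower, against 43 and 84 under median scaling over all miRNA probes and 110 and 50 in the authors' deposited value table. In 67NR the difference was 0.34 ± 0.06, or 1.27-fold, in a comparison that called 11.0% of probes. In 4TO7 it was 0.62 ± 0.06, or 1.54-fold, where 21.4% of probes were called. In 4T1 it was 1.26 ± 0.06, or 2.39-fold, where 31.8% of probes were called. The 4 TGF-beta arrays lay above the 4 inhibitor arrays in every line after normalization, as did 7.12%, 8.49% and 9.04% of probes in 67NR, 4TO7 and 4T1. Ranked from the highest difference down, miR-22 was number 5 of the 365 probes in 67NR, number 4 in 4TO7 and number 2 in 4T1, values that the choice of miR-22 rests on. By size in either direction it was number 18, 7 and 2 in the same order. In such bulk RNA, fewer cells with the miRNA and less of it per cell cannot be told apart.

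**Figure D2:**
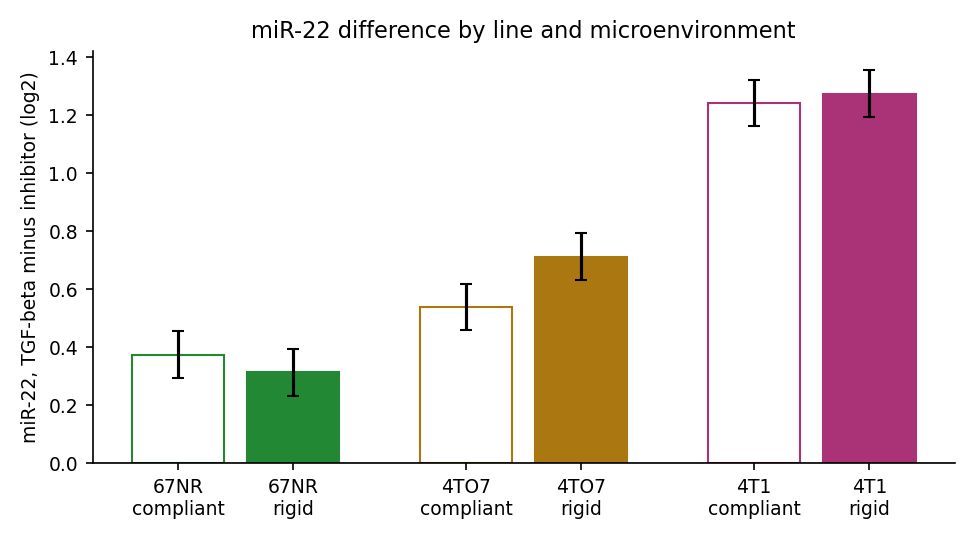
Difference of miR-22 between TGF-beta and inhibitor arrays (log2, quantile normalized) in each line and microenvironment, 2 arrays against 2; bars start at 0, open bars are compliant and filled bars rigid culture, and error bars are the SE of the fit. The values are 0.37 and 0.31 in 67NR, 0.54 and 0.71 in 4TO7 and 1.24 and 1.27 in 4T1.

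The microenvironments gave like differences within a line. In 67NR miR-22 was higher with TGF-beta by 0.37 ± 0.08 in compliant and 0.31 ± 0.08 in rigid culture. In 4TO7 the differences were 0.54 ± 0.08 and 0.71 ± 0.08, and in 4T1 they were 1.24 ± 0.08 and 1.27 ± 0.08. Between lines they were further apart. The difference in 4T1 exceeded that in 67NR by 0.91 ± 0.08 and that in 4TO7 by 0.63 ± 0.08, and the difference in 4TO7 exceeded that in 67NR by 0.28 ± 0.08. Over all tested probes the medians of these 3 contrasts were between -0.02 and 0.01.

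The size of the 67NR difference moved with the scaling between arrays. It was 0.34 or 0.35 under quantile normalization, in the authors' deposited value table and when medians were scaled on the probes detected throughout. Median scaling over all miRNA probes gave 0.27 ± 0.06. Without normalization it was 0.14 ± 0.13, and with scaling on the spike-in probes 0.13 ± 0.19. The median of all tested probes in 67NR was itself at -0.15 under these last 2 scalings, and relative to it miR-22 stood 0.29 higher. These 2 settings and the median scalings differ only by 1 constant per array. The value relative to the median is thus the same in each by construction and is no separate support. In 4TO7 and 4T1 the same 6 scalings gave 0.50 to 0.77 and 1.18 to 1.42.

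**Figure D3:**
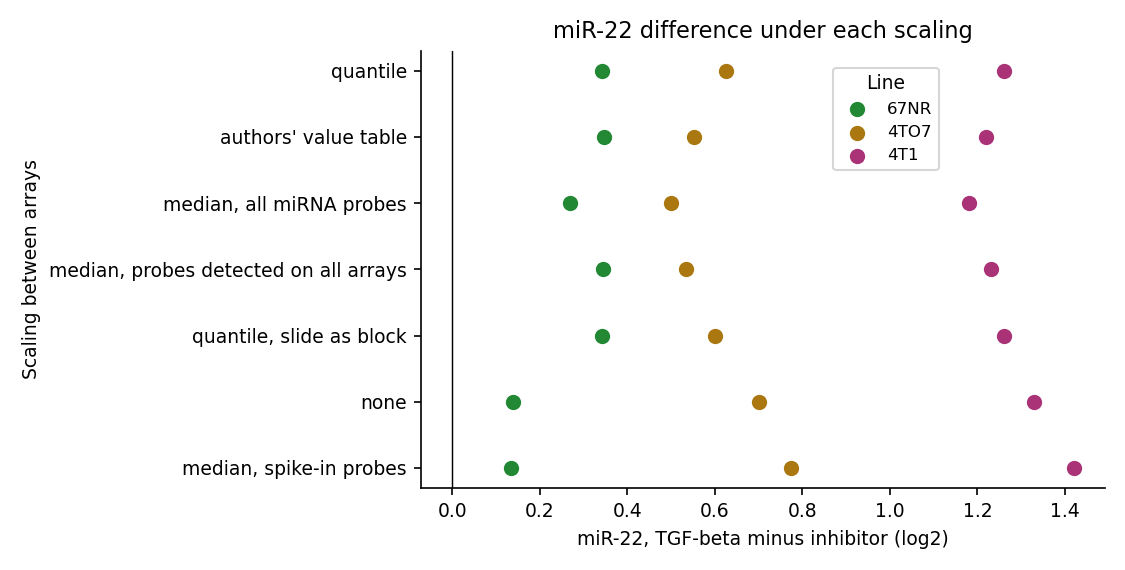
Difference of miR-22 between TGF-beta and inhibitor arrays (log2, 4 arrays against 4) in 67NR (green), 4TO7 (ochre) and 4T1 (purple) under 6 scalings between arrays and with slide as a block. The lines keep their order in every row, and the 67NR value drops from 0.34 to 0.14 without normalization and to 0.13 with spike-in scaling.

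The 24 arrays were spread over 5 slides. On slide 1 the TGF-beta array of compliant 67NR differed from the inhibitor array by 0.33, and on slide 4 that of rigid 67NR by 0.31. On slide 2 the pair of compliant 4TO7 differed by 0.54. Slide 4 held 1 TGF-beta array of rigid 4TO7 and both inhibitor arrays, which gave 0.81 and 0.70. For 4T1 no slide held both agents in 1 microenvironment: 3 of its 4 TGF-beta arrays were on slide 3, which held none of its inhibitor arrays. Slide 1 held a rigid TGF-beta and a compliant inhibitor array, 1.06 apart. With slide as a fixed block the differences were 0.34 in 67NR, 0.60 in 4TO7 and 1.26 in 4T1. On the deposited scale the slide 1 pair of 67NR had the opposite sign, -0.14.

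Rigid and compliant cultures were close in miR-22. Over all lines rigid minus compliant was -0.02 ± 0.03, with values of 0.01 and 0.004 under median scaling over all miRNA probes and in the authors' deposited value table. In 67NR it was 0.135 ± 0.06, in 4TO7 -0.07 ± 0.06 and in 4T1 -0.113 ± 0.06. Both rigid arrays lay above both compliant arrays of 67NR with the inhibitor (0.17 ± 0.08) and with TGF-beta (0.10 ± 0.08). Both rigid arrays lay below both compliant arrays of 4T1 with the inhibitor (-0.13 ± 0.08) and with TGF-beta (-0.10 ± 0.08). In 4TO7 the rigid arrays were lower with the inhibitor (-0.16 ± 0.08) and overlapped the compliant ones with TGF-beta (0.01 ± 0.08). On the deposited scale the rigid and compliant arrays overlapped in 67NR with the inhibitor and in 4T1 with either agent. With 2 arrays against 2, many of the tested probes did not overlap after quantile normalization. With the inhibitor this held for 46.3% in 67NR, 37.8% in 4TO7 and 36.4% in 4T1. With TGF-beta it held for 40.8%, 34.2% and 37.3% in the same order.

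MiR-22*, the other strand of the hairpin, had an intensity near the detection limit. After quantile normalization its means over lines and agents followed the order of miR-22. On the deposited scale they did not: the mean was 139.6 in 4T1 with TGF-beta, above 128.6 and 124.1 in 67NR with the inhibitor and TGF-beta. In 67NR it was detected on all 8 arrays, with intensities of 109 to 143 with the inhibitor and 115 to 147 with TGF-beta, which overlapped. In 4TO7 it read 72.0 to 88.8 with the inhibitor, detected on 0 of 4 arrays, and 90.5 to 128 with TGF-beta, detected on 2 of 4. In 4T1 it read 77.4 to 116 with the inhibitor, detected on 0 of 4 arrays, and 132.3 to 146 with TGF-beta, detected on 4 of 4. The 2 strands thus shared the low readings of 4TO7 and 4T1 with the inhibitor.

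MiR-22* rose with TGF-beta over all lines by 0.27 ± 0.03 (limma with Benjamini-Hochberg adjustment over 365 probes, adjusted p = 5.6e-06), among the 21.4% of probes called higher. That average includes the inhibitor arrays of 4TO7 and 4T1, where it was undetected. In 4T1 it rose by 0.48 ± 0.06 (limma, adjusted p = 5.7e-06), at least 1.40-fold since the inhibitor arrays gave only a bound. In 4TO7 it rose by 0.26 ± 0.06 (limma, adjusted p = 0.0031), or 1.19-fold. That fold is no bound, since only 2 of 4 TGF-beta arrays of 4TO7 detected miR-22*. In 67NR the difference was 0.07 ± 0.06 (limma, adjusted p = 0.49). The call in 4TO7 was lost with spike-in scaling (limma, adjusted p = 0.055). Within slides the matched pairs of miR-22* differed by -0.05 and 0.10 in 67NR and by 0.15, 0.36 and 0.35 in 4TO7. The strands come from 1 hairpin, so this is a second reading of the same transcript and not of another gene.

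The nearest other miRNAs of the list fixed for the chromosome are miR-212 and miR-132, which share a seed and have hairpins 204 bases apart. MiR-132 lies 290.0 kb before the Mir22 hairpin, with 13 annotated genes between miR-132 and Mir22hg, 8 of them protein-coding. With the inhibitor miR-132 of 4T1 had intensities of 302 and 470 in compliant and 329 and 346 in rigid culture. With TGF-beta it had 611 and 667 in compliant and 628 and 591 in rigid culture, and no array overlapped. MiR-132, which CREB activates in neurons, rose in 4T1, where 12.6% of all probes rose. It was higher there by 0.74 ± 0.05 (limma, adjusted p = 1.3e-08). It differed by 0.10 ± 0.05 in 4TO7 (limma, adjusted p = 0.20) and by -0.10 ± 0.05 in 67NR (limma, adjusted p = 0.24), where it was detected on 4 inhibitor arrays and 0 TGF-beta arrays. MiR-212 was detected on all 24 arrays and differed by -0.09 ± 0.08 in 67NR, -0.12 ± 0.08 in 4TO7 and 0.07 ± 0.08 in 4T1, with no call.

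**Figure D4:**
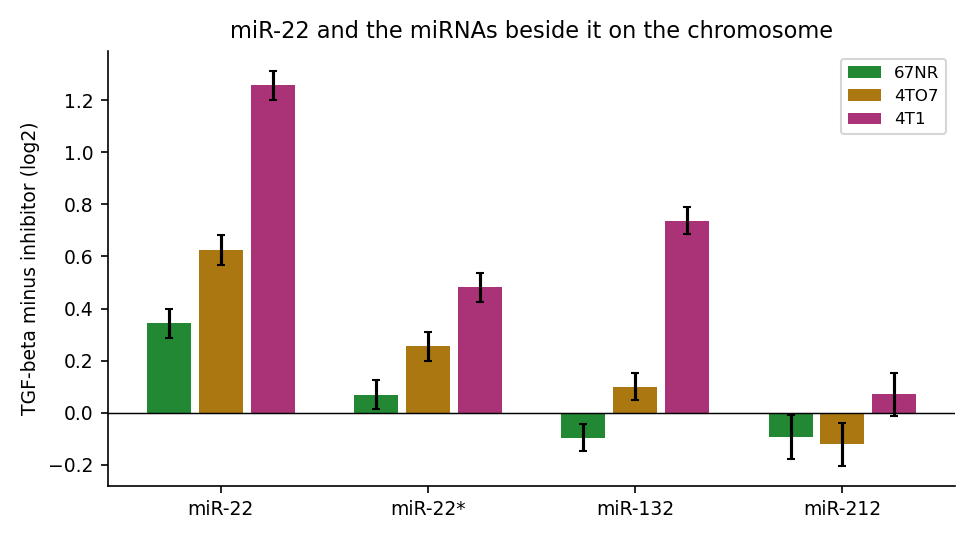
Difference between TGF-beta and inhibitor arrays (log2, quantile normalized, 4 arrays against 4) for miR-22, miR-22*, miR-132 and miR-212 in 67NR (green), 4TO7 (ochre) and 4T1 (purple); error bars are the SE of the fit. MiR-22 and miR-22* are ordered alike over the lines, miR-132 stands out in 4T1 alone (0.74), and miR-212 lies between -0.12 and 0.07.

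The patterns most like that of miR-22 were sought by Pearson's r over the 12 group means. The search covered 324 probes that carry 1 miRNA name, were detected on at least 12 arrays and varied after normalization. The groups share slides and scaling, and 134 of the 324 probes had r above 0.5, with a median r of 0.42, so the values are a description. MiR-22* came first with r = 0.985 and miR-34a, which p53 induces, second with r = 0.953. MiR-762 (0.895), miR-671-5p (0.875) and miR-744 (0.869) followed. MiR-22* and miR-34a were among the first 5 also by Spearman's rho, over the 24 arrays, in the authors' deposited value table and with medians scaled on the probes detected throughout. MiR-762, miR-671-5p and miR-744 were not among the first 5 in each of these.

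MiR-34a had intensities of 328 to 364 in 4TO7 with the inhibitor and 456 to 584 with TGF-beta. In 4T1 it had 435 to 583 with the inhibitor and 759 to 1018 with TGF-beta, and in 67NR 652 to 808 and 648 to 780. As for miR-22, the inhibitor arrays of 67NR lay above those of the other lines, and the gap between the agents was widest in 4T1. The differences of miR-34a were 0.07 ± 0.05 in 67NR, 0.36 ± 0.05 in 4TO7 and 0.63 ± 0.05 in 4T1. The seeds of miR-22 and miR-34a differ.

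The most opposite patterns were those of miR-15b (r = -0.941), a cell cycle regulator, miR-210 (-0.922), the main hypoxia-induced miRNA, and miR-130b (-0.920). Let-7b (-0.918), which opposes proliferation, and miR-30c (-0.891) came next. MiR-210 was lower with TGF-beta by 0.85 ± 0.09 in 67NR, 0.43 ± 0.09 in 4TO7 and 1.23 ± 0.09 in 4T1 on the log2 scale. Its level with the inhibitor was 8.33 in 67NR, 9.82 in 4TO7 and 9.44 in 4T1, means in the reverse of the order of miR-22.

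**Figure D5:**
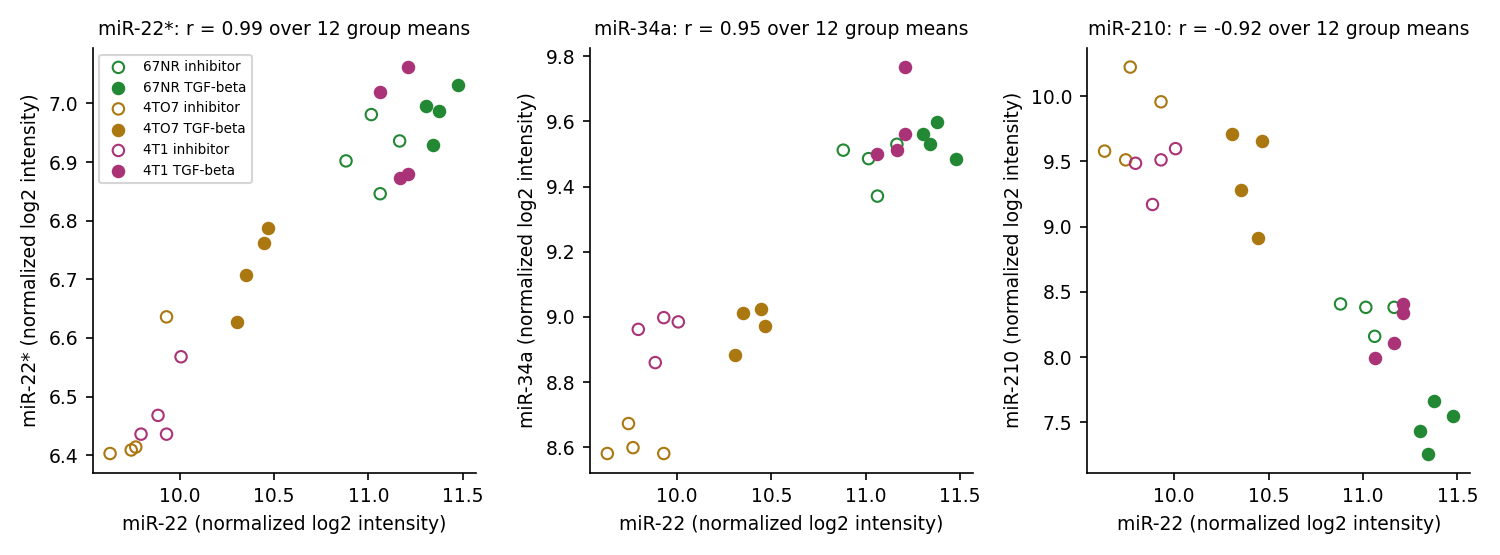
Normalized log2 intensity of miR-22* (left), miR-34a (middle) and miR-210 (right) against that of miR-22 on the 24 arrays; colours are lines, open circles inhibitor and filled circles TGF-beta arrays. Over the 12 group means r was 0.985, 0.953 and -0.922, and the 4T1 arrays move from beside 4TO7 with the inhibitor to beside 67NR with TGF-beta.

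The miR-200 family keeps cells epithelial, and its promoters are reported to be silenced by miR-22 by way of TET enzymes. MiR-200b, miR-200c and miR-429 were detected on all 8 arrays of 4T1 and on 0 arrays of 67NR and 4TO7, so the whole family is described in 4T1. MiR-141, detected on all arrays, differed by -0.11 ± 0.05 in 67NR and 0.01 ± 0.05 in 4TO7. MiR-200a differed by -0.13 ± 0.05 in 67NR, detected on 1 of 8 arrays, and by 0.001 ± 0.05 in 4TO7, detected on 6 of 8. Neither was called in these lines. In 4T1 1 of the 5 members of the family rose, where 12.6% of all probes rose. A fall was called for 0 members, where 19.2% of all probes fell (median difference 0.09, against 0.02 for all tested probes). MiR-200c rose by 0.22 ± 0.05 (limma, adjusted p = 0.0047), while miR-200a and miR-141 both differed by 0.09 ± 0.05, miR-429 by 0.05 ± 0.04 and miR-200b by -0.06 ± 0.04 without passing.

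Of 9 other tested miRNAs reported to repress TET enzymes, 5 fell and 0 rose over all lines, with a median difference of -0.13. Of all probes 18.1% fell and 21.4% rose. MiR-7a (-0.06), miR-7b (0.00), miR-29a (-0.04) and miR-29b (-0.13) did not pass. MiR-125b-5p fell by 0.47 ± 0.04 (limma, adjusted p = 3.8e-08) and miR-26a by 0.40 ± 0.04 (limma, adjusted p = 9.1e-08). MiR-29c fell by 0.23 ± 0.04 and miR-26b by 0.20 ± 0.03. MiR-101b fell by 0.08 ± 0.03, a call that turned to 0.02 with spike-in scaling. In 4T1 5 of 9 fell (19.2% of all probes), in 4TO7 4 (11.8%) and in 67NR 4 (7.67%). In each line 0 members rose, where 12.6%, 9.59% and 3.29% of all probes rose in the same order. This list too was chosen with earlier results of these data known, so its counts are a description. In 67NR the calls of miR-7a, miR-26a and miR-26b were each lost without 1 array, for 5 or 6 of the 8 arrays of that line, and in 4TO7 that of miR-101b in 16 of 24 cases.

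Of 10 tested miRNAs reported as induced by TGF-beta, 5 rose and 0 fell over all lines (median 0.09). Of all probes 21.4% rose and 18.1% fell. The 5 members were miR-181b (0.92 ± 0.02), miR-181a (0.88 ± 0.02), miR-21 (0.45 ± 0.05), abundant in many cancers, miR-199a-5p (0.10 ± 0.03) and miR-155, an immune cell miRNA. MiR-155 was at least 2.22-fold higher in 4TO7, where 0 of 4 inhibitor and 4 of 4 TGF-beta arrays detected it. It rose by 0.18 in 4T1 (limma, adjusted p = 0.017) and differed by 0.05 in 67NR (limma, adjusted p = 0.58). By line 2 rose in 67NR (3.29% of all probes), 4 in 4TO7 (9.59%) and 5 in 4T1 (12.6%). In each line 0 fell, where 7.67%, 11.8% and 19.2% of all probes fell in the same order. The 2 that rose in 67NR were miR-181a and miR-181b. The list was chosen with earlier results of these data known, so its counts are a description and no separate support. MiR-181a and miR-181b were on a par in the 3 lines, at 0.79 and 0.80 in 67NR, 0.90 and 0.98 in 4TO7 and 0.95 and 0.97 in 4T1. MiR-22, at 0.34, 0.62 and 1.26, had a smaller difference than they did in 67NR and 4TO7 and a larger one in 4T1.

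Markers of cell types were checked beside these values. Of 9 epithelial markers, 1 to 3 were detected on the 67NR arrays, 4 to 6 on the 4TO7 arrays and 8 on each 4T1 array. Their summed level (log2) was 9.81 to 9.93 in 67NR, 11.27 to 11.52 in 4TO7, and in 4T1 11.92 to 11.98 with the inhibitor and 12.07 to 12.21 with TGF-beta. MiR-141 was detected on all 24 arrays and miR-182 on 23. MiR-183 and miR-96 were detected on the 16 arrays of 4TO7 and 4T1, miR-200a on 15 arrays, and miR-205 on 2 arrays of 4TO7. MiR-200b, miR-200c and miR-429 were detected on the 4T1 arrays alone. Within 4T1 the epithelial sum was higher with TGF-beta, as miR-22 was, and its part in the result was not tested. Of 5 muscle probes, those of miR-1, miR-133 and miR-208a were detected on 0 arrays, and the summed level of the 5 was 8.89 to 9.08 with the inhibitor and 8.80 to 8.93 with TGF-beta in 4T1. MiR-208b was detected on all 24 arrays and miR-206 on the 8 arrays of 67NR. Of 6 blood probes, miR-451 was detected on all arrays and the other 5 on 0, with a summed level of 10.41 to 10.69 with the inhibitor and 10.48 to 10.77 with TGF-beta in 4T1. Neither endothelial probe was detected on any array. Of the neural and liver probes miR-122 was detected on all arrays and miR-124 on 0. Of 5 fibroblast and mesenchymal probes, 4 were detected on each 67NR array and 3 on each array of the other lines. MiR-143 was detected on the 8 arrays of 67NR alone. The summed level of the 5 was 13.54 to 13.8 in 67NR, 13.11 to 13.23 in 4TO7 and 12.77 to 13.11 in 4T1. Its part in the result was not tested either.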

How the data were processed

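Total RNA of 24 samples was labelled with DY649 and read on 2-dye miRNA arrays against DY547. Per the file headers and the readme deposited with them, the authors' intensity is the relative intensity DY649/DY547 after background subtraction and labelling correction, and arrays were not scaled to each other. Beside it the authors deposited a detection p-value against background probes, an error and a fail code. For 338 probes the authors' value table gives log2 values, which are the log2 intensity plus 1 constant per array (-0.287 to 0.236, largest deviation 5.87e-06, column medians 8.13 to 8.36). Scanner and software are not given in the sources used here.

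The log2 intensities of 558 probes were quantile normalized in limma 3.58.1 (R 4.3.3). A total of 365 probes were tested: detected (p under 0.05) on both arrays of at least 1 group, with the fail code on fewer than 12 arrays. A model of 12 group means (lmFit, eBayes with trend, 12 residual degrees of freedom) gave differences, SE and two-sided Benjamini-Hochberg adjusted p-values, tested on simulated data first. Such p-values reflect only array-to-array spread, which may be technical. Bounds ("at least") set the undetected side at the higher of its own signal and the lowest detected probe of the array. The hairpin was folded with ViennaRNA 2.7.2. MiR-22, the miRNA lists and the naming rule (miR-22, miR-22*, the 5 most like and 5 most opposite patterns, list members with the smallest p) were chosen with earlier results of these data known. Alternatives were 5 other scalings, slide and set as blocks, array weights, no trend, no filters and leaving out each array. The result of 1 further miRNA list is not reported here.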

Additional observations from a re-analysis of the deposited data

Results flagged for a closer look

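The rigid minus compliant difference of miR-22 had opposite signs in 67NR and 4T1. After quantile normalization it was 0.135 in 67NR and -0.113 in 4T1. On that scale both rigid arrays exceeded both compliant arrays in 67NR and lay below them in 4T1, with either agent. Of all tested probes, 46.3% and 40.8% did not overlap in 67NR with the inhibitor and TGF-beta, and 36.4% and 37.3% in 4T1. On the deposited scale rigid and compliant arrays overlapped in 67NR with the inhibitor and in 4T1 with either agent. In the authors' deposited value table they overlapped in 67NR with the inhibitor and in 4T1 with TGF-beta. The difference between the lines was not tested, and the SE of the fit was 0.056 for each value after quantile normalization. On the deposited scale, without normalization, the values were 0.29 in 67NR and -0.18 in 4T1, each with an SE of 0.134. Spike-in scaling gave 0.317 in 67NR and -0.28 in 4T1, each with an SE of 0.186. The remaining scalings gave smaller differences in 4T1 than quantile normalization did. With the SE of the fit, they were -0.074 ± 0.064 under median scaling over all miRNA probes and -0.065 ± 0.064 on probes detected throughout. In the authors' deposited value table the 4T1 difference was -0.080 ± 0.061. The 67NR differences under these scalings were 0.18, 0.175 and 0.16 in the same order.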

How the results depend on the processing

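The differences of miR-22 kept their sign in each line for TGF-beta under all scalings, blocks and omissions run; values that moved by more than the replicate SD follow, and the cause was not tested. Under median scaling over all miRNA probes TGF-beta minus inhibitor was 0.648 over all lines, 0.50 in 4TO7 and 1.18 in 4T1, and with the inhibitor 4T1 and 4TO7 differed from 67NR by -1.30 and -1.38. Scaling medians on the probes detected throughout gave 0.534 in 4TO7. Without normalization TGF-beta minus inhibitor was 0.138 in 67NR, rigid minus compliant 0.292 in 67NR, and with the inhibitor 4T1 minus 67NR was -1.33, 4TO7 minus 67NR -1.66 and 4T1 minus 4TO7 0.327. Spike-in scaling gave 0.134 in 67NR, 0.774 in 4TO7 and 1.42 in 4T1 for TGF-beta, 0.317, -0.168 and -0.28 for rigidity, and -1.39, -1.78 and 0.392 for those 3 pairs of lines. Leaving out 1 array moved the TGF-beta difference between 0.728 and 0.756 over all lines, 0.31 and 0.377 in 67NR, 0.584 and 0.666 in 4TO7, and 1.23 and 1.28 in 4T1.

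Of 144 probes called for TGF-beta over all lines, 57 were called without normalization (27 higher, 30 lower) and 25 with spike-in scaling (18 and 7). For 67NR the count of 40 became 11 with spike-in scaling, 61 in the authors' deposited value table (35 higher, 26 lower), 63 under array weights and 70 when the set number of a line was the replicate block, which left the differences of miR-22 as they were. For 4TO7 78 became 41 without normalization and 18 with spike-in scaling, and for 4T1 116 became 29, 22 and, with slide as a block, 50. Scaling also moved the split of higher and lower calls. On probes detected throughout it was 100 and 52 over all lines, 16 and 22 in 67NR and 80 and 54 in 4T1. With all miRNA probes it was 5 and 41 in 67NR and 27 and 53 in 4TO7, and without normalization 2 and 37 in 67NR, 35 and 6 in 4TO7 and 21 and 8 in 4T1. Spike-in scaling gave 2 and 9, 15 and 3, and 17 and 5 in 67NR, 4TO7 and 4T1. In the authors' table it was 45 and 35 in 4TO7 and 77 and 55 in 4T1, against 12 and 28, 35 and 43, and 46 and 70 in the main setting for 67NR, 4TO7 and 4T1. Leaving out 1 array gave 127 to 157, 28 to 47, 61 to 81 and 91 to 139 calls. Deviations of same-numbered arrays correlated above 0.1 in 2 of 6 pairs in 67NR, 3 of 6 in 4TO7 and 6 of 6 in 4T1. Among all 66 pairs of set 1 arrays, within and across lines, 32 were above 0.1. This measure therefore cannot tell whether the set numbers pair the arrays of a line. With the replicate block 135 probes were called in 4T1, 114 of them among the 116, and the calls of the single miRNAs run stayed on their side of the threshold. Spike-in scaling turned the falls of miR-101b to 0.0224 over all lines, 0.132 in 4TO7 (0.059 without normalization) and 0.0565 in 4T1, and that of miR-125b-5p in 4TO7 to 0.0515. Detection of miR-22 was on 24 arrays at a threshold of 0.01 too. The signal of miR-22* near background limits its fold in 4T1 to a bound and gives no bound in 4TO7.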

Other observations

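The error deposited with the miR-22 spot was lowest on the 4T1 arrays with TGF-beta, at 1.31% to 4.85% of the intensity, and 3.75% to 7.43% on the 4T1 arrays with the inhibitor. It was 6.75% to 11.01% in 67NR and 6.37% to 11.7% in 4TO7 over both agents. After quantile normalization the probes of miR-720, miR-705 and miR-1224 held 1 value on all arrays and could not be compared with miR-22.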
